A study of Mus musculus with 24 samples.

Results

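The comparison described here sets primary murine astrocytes exposed to 0.1 Gy of X-rays against mock-irradiated astrocytes (0 Gy), both harvested 24 h after exposure. Its members are all 8 libraries that carry these labels, 4 for each dose, out of 24 libraries in the series, and every one of the 49315 genes listed in the count files. Libraries were paired by their replicate number (n1 to n4). The series holds 6 conditions, with mock, 0.1 Gy and 2 Gy each sampled 6 h and 24 h after exposure. All cells were wildtype C57BL/6J astrocytes from the cortices of embryos taken shortly before birth, grown as passage 1 monolayers, and no allele or agent other than X-rays differed between groups. The embryos of a litter were pooled and new astrocytes were isolated for each biological repeat, so that a repeat stands for a litter and its culture, not for single animals.

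The files held raw read counts per gene. Between 17923903 and 37039966 reads were assigned per library, and 16183 genes passed the filter on low counts. The 11 astrocyte markers that could be tested were all expressed, with Gfap at 441 ± 52.1 CPM (counts scaled to library size, mean ± SD, n = 4) in mock cultures and Aqp4 at a mean of 686 CPM, while Gjb6 reached at most 4 reads in any library. Markers of other cells were also read. The 14 microglial markers summed to between 2066 and 2955 CPM in 6 libraries, but to 299 and 366 CPM in the mock and irradiated libraries of replicate 2. Libraries of the same replicate number deviated together from their group means, with correlations across genes of 0.66 to 0.88.

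Astrocytes are glial cells that buffer ions and transmitters, feed neurons and respond to injury, and they keep the ability to divide in culture. Ionizing radiation breaks DNA. Damaged cells activate the kinases ATM and ATR and the transcription factor p53, which raises the CDK inhibitor p21 (Cdkn1a), and repression of genes for replication and mitosis through E2F and the DREAM complex follows. Metallothioneins are small cysteine-rich proteins that bind zinc and copper, scavenge radicals and are induced through metal response elements. The question of this comparison was which genes a low dose of X-rays leaves altered after 1 day.

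A gene was called changed when its Benjamini-Hochberg adjusted p in the paired edgeR quasi-likelihood fit was below 0.05 and its level moved the same way in all 4 pairs. By this rule 350 of 16183 genes rose (2.16% of all genes tested) and 692 fell (4.28%). Changes were small, with a median log2 fold change of 0.47 among genes that rose and -0.45 among genes that fell. A change of at least 2-fold was met by 4 genes that rose (0.0247%) and 24 that fell (0.148%). Without any test, 2321 genes (14.3%) were higher and 2859 (17.7%) lower in all 4 pairs. The ranges of the groups overlapped for most changed genes. All 4 irradiated libraries lay above all 4 mock libraries for 7 of the 350 genes that rose and below them for 23 of the 692 that fell, against 90 and 89 of all 16183 genes tested. Where groups are said below not to overlap, this describes single genes and is no test.

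The count depended on the pairing and on the libraries in the fit. With all 24 libraries in 1 fit and the replicate block within each time, no gene passed edgeR's adjusted p of 0.05 (lowest adjusted p = 0.0542, a value shared by Gm24187, Mt2, Esco2 and other genes, and 4883 of 17353 genes at an unadjusted p below 0.05). Without the replicate block no gene passed edgeR's adjusted p of 0.05 (lowest adjusted p = 0.94, and 241 genes at an unadjusted p below 0.05). It also depended on replicates 2 and 4, in which the irradiated and mock libraries differed most. Without replicate 2, 20 genes were called, and without replicate 4, 16. Without replicate 3 the count rose to 3633, and without replicate 1 it was 1138. Scaling by total counts alone moved the median of all genes from -0.0033 to 0.09 on the log2 scale and turned the split to 1395 higher and 291 lower. All 350 genes that rose and 291 of those that fell were called under both scalings.

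**Figure D1:**
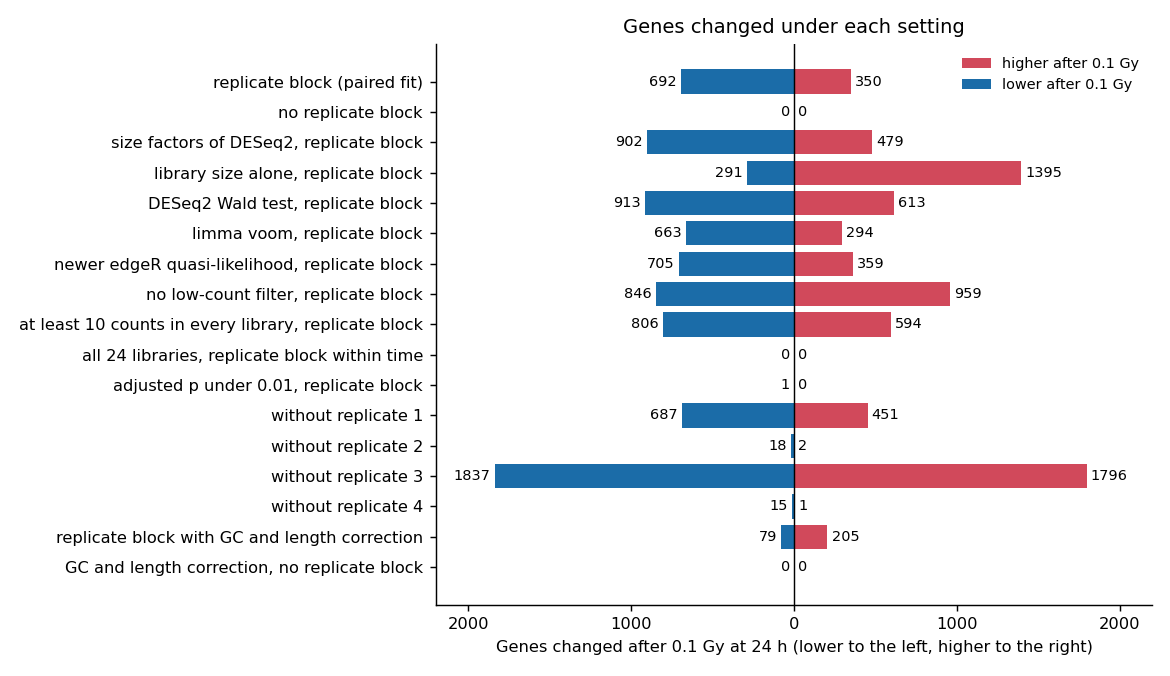
Number of genes called higher (right) and lower (left) after 0.1 Gy at 24 h under each setting of the test. The paired fit gave 350 higher and 692 lower genes, the fit without pairing gave 0, and leaving out replicate 2 or replicate 4 left 20 and 16.

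Across all 4 ways of leaving out a replicate, 10 genes stayed called, 1 higher and 9 lower. They were chosen by this property after their values were seen. The gene that rose was Mt2, a metallothionein. Those that fell were the short gene models Gm24187, Gm24270 and Gm25911, Rmrp and Rn7sk, which are structured noncoding RNAs, and the genes Cdr1, Esco2, Lmbrd2 and Pank3. Rmrp is the RNA of an RNase that processes ribosomal and mitochondrial RNA, Rn7sk restrains transcription elongation, Esco2 acetylates cohesin during S phase and Pank3 is a pantothenate kinase. Of the 60 called genes given by name here, 12 stayed called without replicate 2, these 10 with Zfp871 and Pcsk1n, and 11 without replicate 4, these 10 with Malat1. The 10 are described first.

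The gene with the smallest adjusted p of the comparison was Gm24187, annotated as a microRNA in GENCODE M21 at chr13:9834469-9834525 on the minus strand (GRCm38). Its sequence is shown with 2 relatives because the 3 models differ at few bases and all fell. Capitals mark bases unlike Gm24187, and Gm25911 also lacks 1 base.
Gm24187: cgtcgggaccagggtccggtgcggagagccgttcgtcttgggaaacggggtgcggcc
Gm24270: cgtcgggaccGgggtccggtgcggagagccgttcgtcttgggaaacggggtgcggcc
Gm25911: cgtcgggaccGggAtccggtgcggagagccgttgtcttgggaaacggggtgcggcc
Gm24270 lies at chr9:56223715-56223771 on the minus strand, inside Peak1, and Gm25911 at chr1:167340369-167340424 on the minus strand. The models Gm23935, at chr16:11144125-11144181 on the plus strand, and Gm24245 have the same letters as Gm24270. Reads of such copies can be split or shared between them by the counting, so values of single models are uncertain. Which RNA these reads came from was not resolved, and the annotation as a microRNA does not settle it.

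In mock cultures Gm24187 stood at 68.2, 26.3, 20.2 and 19.97 CPM in replicates 1 to 4, and in irradiated cultures at 21.7, 6.60, 5.08 and 5.53 CPM. Every pair fell about as far, although the lowest mock value lay below the irradiated value of replicate 1. The log2 fold change was -1.87 ± 0.11 (SE, edgeR adjusted p = 1.285e-06). Gm25911 stood at 3.73, 1.13, 1.52 and 1.09 CPM in mock and at 1.05, 0.359, 0.464 and 0.385 CPM in irradiated cultures, between 10 and 88 reads, and here the groups did not overlap. Gm24270, with 677, 258, 417 and 142 CPM in mock against 181, 131, 118 and 136 CPM in irradiated cultures, fell by 1.21 on the log2 scale, but pair 4 fell by only 0.07. The near-identical Gm23935 passed the adjusted p but not the rule of 4 pairs, being higher by 0.03 in pair 4. It and Gm42418 are named here after their values were seen.

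Rmrp fell in each pair, from 18.6, 7.44, 11.2 and 4.02 CPM to 6.21, 2.15, 2.50 and 3.36 CPM, with a log2 fold change of -1.49 ± 0.23 (edgeR adjusted p = 0.0226). It shares 159 bases with Ccdc107 on the other strand. Rn7sk went from 114, 41.8, 58.8 and 20.1 CPM to 59.7, 24.7, 13.0 and 17.9 CPM, a change of -1.02 ± 0.22. In both RNAs pair 4 moved least. Gm42418, a model on chromosome 17 known to take up ribosomal RNA reads, held 114700, 44990, 40280 and 8612 CPM in mock and 53000, 15490, 6758 and 9645 CPM in irradiated libraries. It was the most abundant of these models and moved the other way in pair 4. Small noncoding RNAs together, mitochondrial tRNAs included, took 1.17, 0.470, 0.995 and 0.314% of the counts in mock libraries and 0.502, 0.321, 0.311 and 0.328% in irradiated libraries. These RNAs largely lack the poly(A) tail by which RNA for the libraries was selected, and the part of that selection in the result was not tested. Of 67 small noncoding RNAs tested, 0 rose and 10 fell (14.9%, against 4.28% of all genes), among them 4 of 5 scaRNAs, guide RNAs of Cajal bodies. Also among the 10 are the 3 near-identical models Gm24187, Gm24270 and Gm25911, whose source RNA was not resolved. The median log2 fold change of the 67 was -0.37, with pair medians of -0.51, 0.04, -0.53 and -0.05. With GC content and gene length corrected, as set out further on, the median was -0.02, with 1 up and 9 down. Mitochondrial tRNAs were counted apart, and of these 15 genes 0 rose and 4 fell (26.7%), with a median of -0.60 that went to -0.06 after correction (2 up, 1 down). Among them, mt-Tv fell by 1.39 on the log2 scale. It was no longer called after correction (-0.90, edgeR adjusted p = 0.108) or without replicate 2 or 4 (edgeR adjusted p = 0.128 and 0.140).

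Mt2 was the only gene that rose whichever replicate was left out. Its levels were 74.7, 38.6, 166 and 108 CPM in mock and 107, 141, 301 and 243 CPM in irradiated cultures. All 4 irradiated values exceeded their mock partner, by 0.52 to 1.87 on the log2 scale, while the ranges of the groups overlapped. The log2 fold change was 1.09 ± 0.16 (edgeR adjusted p = 0.0174). Both other metallothioneins named here rose as well. Mt1 went from 200, 88.1, 302 and 255 CPM to 297, 170, 400 and 371 CPM (0.61 ± 0.10), and Mt3, the form enriched in brain, from 338, 222, 605 and 379 CPM to 429, 480, 788 and 724 CPM (0.69 ± 0.12). Replicate 3 was the highest in each of these genes at both doses. Mt2 overlaps the antisense gene Gm45774 over 749 bases, and without stated strand use the reads of such pairs cannot be told apart.

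The 3 genes lie side by side on chromosome 8. The promoters of Mt2 (chr8:94172368-94172667, plus strand) and Mt1 (chr8:94178839-94179138, plus strand) are shown because these neighbours rose together. The sequences run from 250 bases before to 50 bases after the RefSeq start (GRCm38.p6), and capitals mark cores of metal response elements, TGCACNC or TGCGCNC on either strand.
Mt2: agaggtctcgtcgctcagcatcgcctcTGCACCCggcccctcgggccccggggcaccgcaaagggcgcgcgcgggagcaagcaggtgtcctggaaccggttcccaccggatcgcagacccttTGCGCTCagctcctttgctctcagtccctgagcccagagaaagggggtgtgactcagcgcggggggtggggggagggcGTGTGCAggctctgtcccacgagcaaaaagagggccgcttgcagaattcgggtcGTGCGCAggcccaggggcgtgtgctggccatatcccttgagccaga
Mt1: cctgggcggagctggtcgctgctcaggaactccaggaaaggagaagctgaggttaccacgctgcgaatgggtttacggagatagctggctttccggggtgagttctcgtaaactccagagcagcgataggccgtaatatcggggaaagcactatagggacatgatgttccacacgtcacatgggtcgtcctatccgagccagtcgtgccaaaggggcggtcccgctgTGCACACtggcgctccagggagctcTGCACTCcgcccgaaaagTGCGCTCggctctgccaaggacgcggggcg
Mt2 held 4 such cores, Mt1 3 and Mt3 1. Of 32841 mouse promoters of the same length, 25.7% held at least 1 core, 1.97% at least 3 and 0.518% at least 4. This motif was chosen after the values were seen, and a match describes letters, not use by a factor.

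The metallothioneins belong to a list of 23 Nrf2 targets and antioxidant enzymes, of which 5 rose (21.7%, against 2.16% of all genes) and 0 fell, with a median log2 fold change of 0.09 against -0.0033 over all genes. Mt1 and Mt2 were among the 5. Without replicate 2, and likewise without replicate 4, 1 member was called, and after correction for GC content and length 4 rose and 1 fell. Genes for stress of the endoplasmic reticulum (0 up and 1 down of 21, 4.76%) and for heat shock proteins (1 up and 0 down of 21, 4.76%) mostly did not pass. Further genes that rose at least 2-fold were Foxo6, a forkhead transcription factor, Scand1, a SCAN domain protein, and Rpl9-ps6, a copy of the ribosomal protein gene Rpl9. Foxo6 was low, at 0.61 to 1.48 CPM in mock and 1.26 to 3.48 CPM in irradiated cultures, and its call was lost after correction for GC content and length (0.93, edgeR adjusted p = 0.0523) and without replicate 2 or 4. Scand1 rose by 1.01 ± 0.21 on the log2 scale, yet by only 0.07 in pair 3, and overlaps Cnbd2 on the other strand. It too was not called without replicate 2 or 4. Rpl9-ps6 rested on 5 to 51 reads per library and changed by 1.22 ± 0.31 (edgeR adjusted p = 0.0371). Its call was lost after correction for GC content and length and without replicate 1, 2 or 4, and reads of such copies are uncertain. Other genes that rose were Pcsk1n, a proprotein convertase inhibitor (0.97 ± 0.16), Romo1, a mitochondrial inner membrane protein (0.80 ± 0.16), the AP-1 subunit Jund (0.78 ± 0.16) and the glycoprotein-binding F-box protein Fbxo2 (0.68 ± 0.14).

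**Figure D2:**
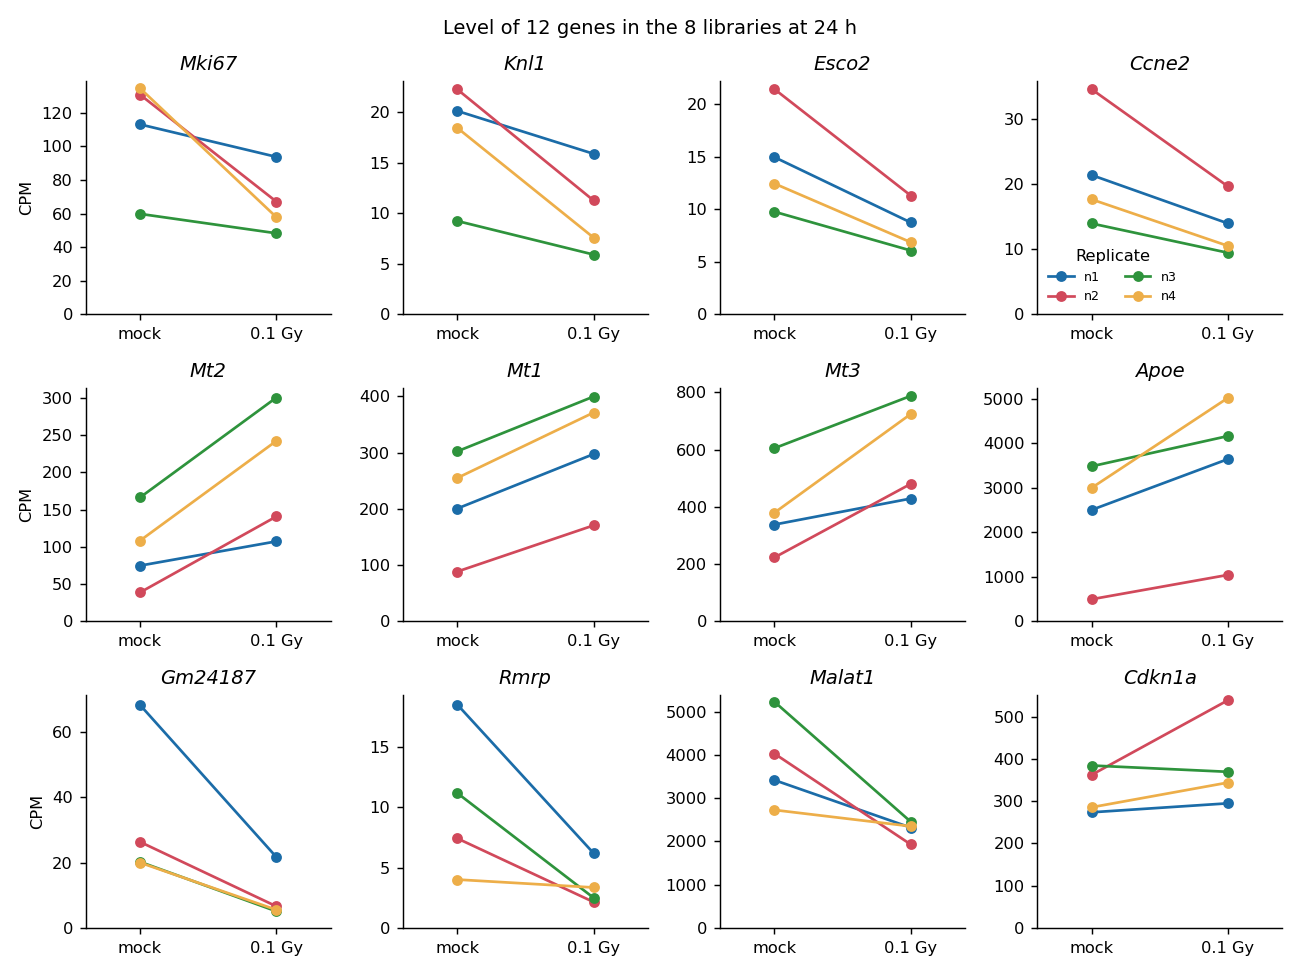
CPM (linear axis from 0) of 12 genes in the 8 libraries, with the mock and the irradiated library of a replicate joined by a line. Mt1, Mt2, Mt3 and Apoe rose and Mki67, Knl1, Esco2, Ccne2, Gm24187, Rmrp and Malat1 fell in all 4 pairs, while Cdkn1a was lower in pair 3.

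Genes of mitosis fell more often than they rose, though many did not pass the test. The list of mitotic kinesins and cytokinesis had 12 of 22 members fall (54.5%) and 0 rise, with a median log2 fold change of -0.42. Of 29 kinetochore and spindle checkpoint genes 9 fell (31.0%) and 0 rose (median -0.31), and of 31 cyclins, kinases and mitotic entry genes 7 fell (22.6%) and 0 rose (median -0.19). Over all genes 4.28% fell and the median was -0.0033. Lower in all 4 pairs were 17 of the kinesin and cytokinesis genes, 19 of the kinetochore genes and 16 of the cyclin list. A fold change above 0 was seen in 1, 4 and 7 members of these lists. Without replicate 2 no member of these 3 lists was called by edgeR (unadjusted p below 0.05 for 16 of 22, 11 of 29 and 10 of 31 members), nor without replicate 4 (15, 14 and 9), and each list's median stayed below 0 whichever replicate was left out.

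Mki67, the gene of the proliferation antigen Ki-67, stood at 113, 131, 59.8 and 135 CPM in mock and at 93.8, 67.1, 48.3 and 57.8 CPM in irradiated cultures. The fall was deepest in replicates 2 and 4, and the irradiated values of replicates 1 and 2 remained above the lowest mock value. Its log2 fold change was -0.69 ± 0.14 (edgeR adjusted p = 0.0262). Knl1, a kinetochore scaffold, went from 20.1, 22.3, 9.23 and 18.5 CPM to 15.9, 11.3, 5.91 and 7.59 CPM (-0.81 ± 0.14). The spindle pole protein Aspm changed by -0.70 ± 0.14, the kinetochore motor Cenpe by -0.65 ± 0.11, Cenpf by -0.60 ± 0.11, the spindle motor Kif11 by -0.48 ± 0.10 and the topoisomerase Top2a by -0.44 ± 0.10. In Knl1, Aspm, Cenpf and Kif11, as in Mki67, pair 4 moved most.

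Among the cyclins, Ccna2, which acts in S phase and at mitotic entry, separated the groups. It measured 40.9, 43.8, 35.0 and 36.7 CPM in mock and 29.6, 30, 24.5 and 28.7 CPM in irradiated cultures, so that every irradiated library lay below every mock library. Its log2 fold change was -0.47 ± 0.09, and pairs ranged from -0.54 to -0.35. Ccne2, the cyclin E2 of S phase entry, went from 21.4, 34.6, 14.0 and 17.7 CPM to 14.0, 19.7, 9.47 and 10.5 CPM (-0.69 ± 0.11). Both cyclin genes overlap a gene on the other strand. Ccne2 shares 5622 bases of its span with Ints8 (means of 17.7 and 52.9 CPM). Ccna2 shares 863 with Exosc9 (33.6 and 33.5 CPM). Esco2 went from 14.9, 21.4, 9.75 and 12.4 CPM to 8.73, 11.3, 6.07 and 6.85 CPM, with a log2 fold change of -0.81 ± 0.11 (edgeR adjusted p = 0.0174) that was between 0.68 and 0.92 in size in every pair.

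Mitotic genes share promoter elements, the cell cycle homology region TTTGAA bound by the DREAM complex and CCAAT boxes bound by NF-Y. Promoters of Mki67 (chr7:135716330-135716629, minus strand) and Knl1 (chr2:119046869-119047168, plus strand) are shown with both motifs, searched on both strands, in capitals. They are examples from the group that fell together (RefSeq, GRCm38.p6).
Mki67: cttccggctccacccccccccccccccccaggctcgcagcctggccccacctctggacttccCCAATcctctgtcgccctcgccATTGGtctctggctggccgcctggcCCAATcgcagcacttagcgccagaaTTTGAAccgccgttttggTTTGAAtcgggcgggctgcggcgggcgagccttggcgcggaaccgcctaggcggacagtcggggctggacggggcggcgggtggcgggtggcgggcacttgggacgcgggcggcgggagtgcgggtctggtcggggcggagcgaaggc
Knl1: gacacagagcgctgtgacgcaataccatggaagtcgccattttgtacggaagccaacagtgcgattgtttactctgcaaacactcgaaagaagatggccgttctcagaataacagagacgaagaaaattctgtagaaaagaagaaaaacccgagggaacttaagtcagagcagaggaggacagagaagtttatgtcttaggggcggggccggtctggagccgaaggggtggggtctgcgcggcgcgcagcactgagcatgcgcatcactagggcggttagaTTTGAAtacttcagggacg
Mki67 held 2 TTTGAA and 3 CCAAT matches, Knl1 1 and 0. The promoter of Cenpe, which also fell and is not shown, held 0 TTTGAA matches and 1 CCAAT match. A match describes letters, not use by a factor. The letters TTTGAA were found in 19 of 23 promoters of the kinesin and cytokinesis list (82.6%), in 40.0% of 30 kinetochore promoters and in 37.5% of 24 cyclin list promoters, against 17.9% of all 32841 promoters. CCAAT was found in 60.9%, 73.3% and 66.7% of these promoters, against 37.4% of all. In the list of MCM helicase and origin licensing genes, TTTGAA was found in 25% of 24 promoters and CCAAT in 62.5%. E2F elements, searched as TTTGGCGC, TTTCGCGC and TTTCCCGC, were found in 37.5% of the MCM and licensing promoters, in 20.8% of the cyclin list, in 8.70% of the kinesin list, in 0 of 30 kinetochore promoters and in 1.85% of all promoters. The 27 promoters of the replication fork list held TTTGAA in 7.41%, CCAAT in 44.4% and E2F elements in 25.9%. No matches overlapped in the promoters printed.

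Genes of DNA replication passed the test about as rarely as all genes, and among genes of repair 4 fell. Of 24 MCM helicase and origin licensing genes 1 fell (Orc4, -0.52 ± 0.11), and of 28 replication fork genes 1 fell (Pole, the catalytic subunit of polymerase epsilon, -0.42 ± 0.11), with medians of -0.16 and -0.09. These shares are 4.17% and 3.57%, against 4.28% of all genes. Pole was 15.0, 18.2, 15.6 and 15.8 CPM in mock and 11.99, 12.9, 11.97 and 11.2 CPM in irradiated cultures, with no overlap of the groups. The helicase subunit Mcm6 (-0.18 ± 0.09) and the sliding clamp Pcna (-0.12 ± 0.09) did not pass the test. Of 32 genes of homologous recombination and the Fanconi anemia pathway 4 fell (12.5%) and 0 rose (median -0.23), among them the helicase Brip1 (-0.57 ± 0.14) and Fancd2 (-0.52 ± 0.13). Without replicate 2 or 4, edgeR called 0 genes of these 3 lists. Of 19 genes of double-strand break signalling and end joining 0 were called by edgeR or DESeq2, with 9 at an unadjusted p below 0.05 in edgeR and a median of -0.16. A list of 66 genes chosen for being lower after 2 Gy had 39 members fall (59.1%), 0 rise and all 66 below 0 (median -0.44). Of these 39 calls, 1 was left without replicate 2, 1 without replicate 4 and 11 after correction for GC content and length. That list comes from libraries that include the same mock cultures and is no independent evidence of direction.

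Targets of p53 were divided. Of 28 targets 3 rose (10.7%, against 2.16% of all genes) and 2 fell (7.14%, against 4.28%), with a median of 0.02, and without replicate 2 or 4 edgeR called 0 (7 at an unadjusted p below 0.05 in both cases). The apoptosis genes Bbc3 (PUMA) and Bax rose by 0.69 ± 0.15 and 0.61 ± 0.13 on the log2 scale, and Trp53inp1 and the receptor Eda2r changed by -0.47 ± 0.09 and -0.37 ± 0.09. Cdkn1a was 274, 362, 384 and 285 CPM in mock and 295, 539, 369 and 344 CPM in irradiated cultures. It did not pass the test (0.22 ± 0.10, edgeR adjusted p = 0.175) and was lower in pair 3.

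Genes of the ribosome and of the respiratory chain that are encoded in the nucleus rose more often than they fell. Of 82 genes of the cytosolic ribosome 20 rose and 0 fell (median 0.21), and of 80 nuclear genes for the respiratory chain 17 rose and 0 fell (median 0.25), which is 24.4% and 21.2% against 2.16% of all genes. Without replicate 2 and without replicate 4, edgeR called 0 genes of either list (27 and 32 at an unadjusted p below 0.05 in both cases), and without replicate 3 it called 36 and 40. The ribosomal stalk gene Rplp2 rose by 0.73 ± 0.15 and Rpl37a by 0.47 ± 0.09, while the ATP synthase gene Atp5g3 rose by 0.63 ± 0.12 and the complex I gene Ndufa8 by 0.59 ± 0.12. Atp5g3 went from 97.4, 108, 183 and 89.0 CPM to 136, 205, 210 and 169 CPM. Of 78 mitochondrial ribosomal genes 6 rose (7.69%), of 37 proteasome genes 3 (8.11%), and of 53 splicing factors 7 (13.2%), such as Hnrnpa0 (0.52 ± 0.11) and Snrpd2 (0.57 ± 0.12), while 1 splicing factor fell. These lists also had 0 genes called without replicate 2 or 4.

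The 13 mRNAs encoded by mitochondrial DNA moved against the nuclear respiratory genes in 3 of 4 pairs. Their median log2 fold change was -0.60, with pair medians of -0.63, -1.12, 0.12 and -0.77. Only mt-Co1, a subunit of complex IV, was called (-0.53 ± 0.13, 1 of 13 or 7.69%, against 4.28% of all genes), and in pair 3 it differed by 0.02. None of these mRNAs was called without replicate 1, by edgeR without replicate 2 or 4 (8 and 10 at an unadjusted p below 0.05) or by DESeq2 (4 at an unadjusted p below 0.05). Leaving out replicate 3, edgeR called 10 of the 13 lower (median -0.83). In the paired fit all 13 had an unadjusted p below 0.05 in edgeR. These mRNAs took 2.16, 4.96, 1.89 and 3.64% of the counts in mock and 1.47, 2.56, 2.25 and 2.20% in irradiated libraries.

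Among zinc finger and chromatin genes more fell than rose. Of 357 Zfp genes, many of which encode transcriptional repressors, 1 rose (Zfp428, 0.58 ± 0.15) and 41 fell (median -0.23), with Zfp871 at -1.07 ± 0.21 and Zfp280c at -0.67 ± 0.12. Of 126 ubiquitin ligase and deubiquitinase genes 1 rose and 12 fell (median -0.10), of 29 chromatin remodellers 4 fell (median -0.27), among them Atrx (-0.59 ± 0.11), and of 22 centrosome and cilium scaffolds 4 fell (median -0.20). The genes that fell were 11.5% of the Zfp genes tested, 9.52% of the ubiquitin list, 13.8% of the chromatin list and 18.2% of the centrosome list, against 4.28% of all genes. Pair medians of the chromatin list were 0.11, -0.19, -0.33 and -0.48, so that pair 1 went the other way, and 9 of its 29 members were lower in all 4 pairs. Without replicate 2 the count of 41 became 1, and without replicate 4 it became 0 (93 and 85 at an unadjusted p below 0.05 in edgeR), while the ubiquitin, chromatin and centrosome lists had 0 genes called in either case. Of 15 nuclear long noncoding RNAs 3 fell (20%) and 0 rose. By edgeR, 0 of them were called without replicate 2 and 1 without replicate 4 (5 at an unadjusted p below 0.05 in both cases). Malat1, an abundant RNA of nuclear speckles, measured 3419, 4032, 5231 and 2728 CPM in mock and 2320, 1931, 2456 and 2351 CPM in irradiated cultures, where the groups did not overlap (-0.73 ± 0.13). Kcnq1ot1, an imprinted antisense RNA inside Kcnq1, changed by -0.83 ± 0.17. Lmbrd2, a membrane protein gene, went from 72.5, 77.5, 13.7 and 48.3 CPM to 52.2, 44.1, 7.17 and 15.3 CPM, and Pank3 from 224, 252, 117 and 171 CPM to 172, 147, 61.2 and 106 CPM. In both, the spread between replicates exceeded the change with dose. Cdr1 went from 7.05, 5.13, 3.37 and 2.98 CPM to 3.84, 0.753, 0.903 and 0.944 CPM, and its locus is known for transcripts of both strands, which these counts do not separate. Ptchd1, a patched domain gene, changed by -0.73 ± 0.13.

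Genes of astrocyte identity and reactivity mostly did not pass the test. Of the 11 astrocyte markers 0 were called by edgeR, with 5 at an unadjusted p below 0.05 and a median of 0.11, while DESeq2 called 2. Gfap, the intermediate filament raised in reactive astrocytes, was 407, 413, 518 and 426 CPM in mock and 500, 530, 624 and 486 CPM in irradiated cultures. It was higher in all 4 pairs but missed the threshold (0.28 ± 0.08, edgeR adjusted p = 0.0588). Of 35 reactive astrocyte genes 3 rose, such as the class I antigen H2-D1 (0.64 ± 0.11), and 3 fell, such as the prostaglandin synthase Ptgs2 (-0.53 ± 0.11). Each is 8.57% of the list, against 2.16% and 4.28% of all genes, and 16 of the 35 had an unadjusted p below 0.05. Without replicate 2 or 4, edgeR called 0 of them (10 at an unadjusted p below 0.05 in both cases). Of 22 cytokine, chemokine and NF-κB feedback genes 1 rose (4.55%), and of 25 interferon-stimulated genes 1 rose (4%). Among homeostatic genes the bicarbonate transporter Slc4a4 changed by -0.41 ± 0.10 and Apoe, the main lipid carrier of astrocytes, rose by 0.66 ± 0.12. Apoe was 2498, 491, 3478 and 2993 CPM in mock and 3640, 1038, 4158 and 5015 CPM in irradiated cultures, lowest in the replicate with the fewest microglial reads. Of 16 collagens 0 were called by edgeR, with 6 at an unadjusted p below 0.05, and DESeq2 called 2. Of 17 glycolysis genes 1 rose (5.88%, against 2.16% of all genes), with a median of 0.18. Above 0 were 16 of them, against 8016 of all 16183 genes tested. By edgeR, 0 of them were called without replicate 2 or 4 (1 and 3 at an unadjusted p below 0.05). After correction for GC content and length 0 were called as well (5 at an unadjusted p below 0.05).

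Of 14 microglial markers 1 rose, C1qc (0.42 ± 0.10), of 9 oligodendrocyte lineage markers 2, among them Olig1 (0.41 ± 0.09), and of 10 neuron markers 1 fell, Map2 (-0.42 ± 0.09). These are 7.14% and 22.2% against 2.16% of all genes, and 10% against 4.28%. Without replicate 2, and likewise without replicate 4, edgeR called 0 of the microglial (4 and 5 at an unadjusted p below 0.05), oligodendrocyte (2 and 2) and neuron markers (1 and 1). Of 12 vessel and fibroblast markers 0 were called by edgeR or DESeq2, and 1 had an unadjusted p below 0.05 in edgeR. The summed microglial markers were 2066, 299, 2545 and 2604 CPM in mock and 2497, 366, 2525 and 2955 CPM in irradiated libraries. Summed oligodendrocyte lineage markers were 587, 631, 644 and 471 CPM in mock and 681, 921, 761 and 580 CPM in irradiated libraries, higher in all 4 pairs. Summed neuron markers were 651, 836, 554 and 616 CPM in mock and 588, 737, 540 and 542 CPM in irradiated libraries, lower in all 4 pairs. The lower sum rested on Map2, without which it was 328, 407, 387 and 348 CPM in mock and 320, 447, 400 and 366 CPM in irradiated libraries, higher in 3 of 4 pairs. Of the 10 neuron markers 5 had a fold change below 0 and 5 above, with a median of -0.0079. The ranges of the groups overlapped for the oligodendrocyte and the neuron sum. In bulk RNA fewer cells of a type and less RNA per cell cannot be told apart. The part of these cells in the changes above was not tested.

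**Figure D3:**
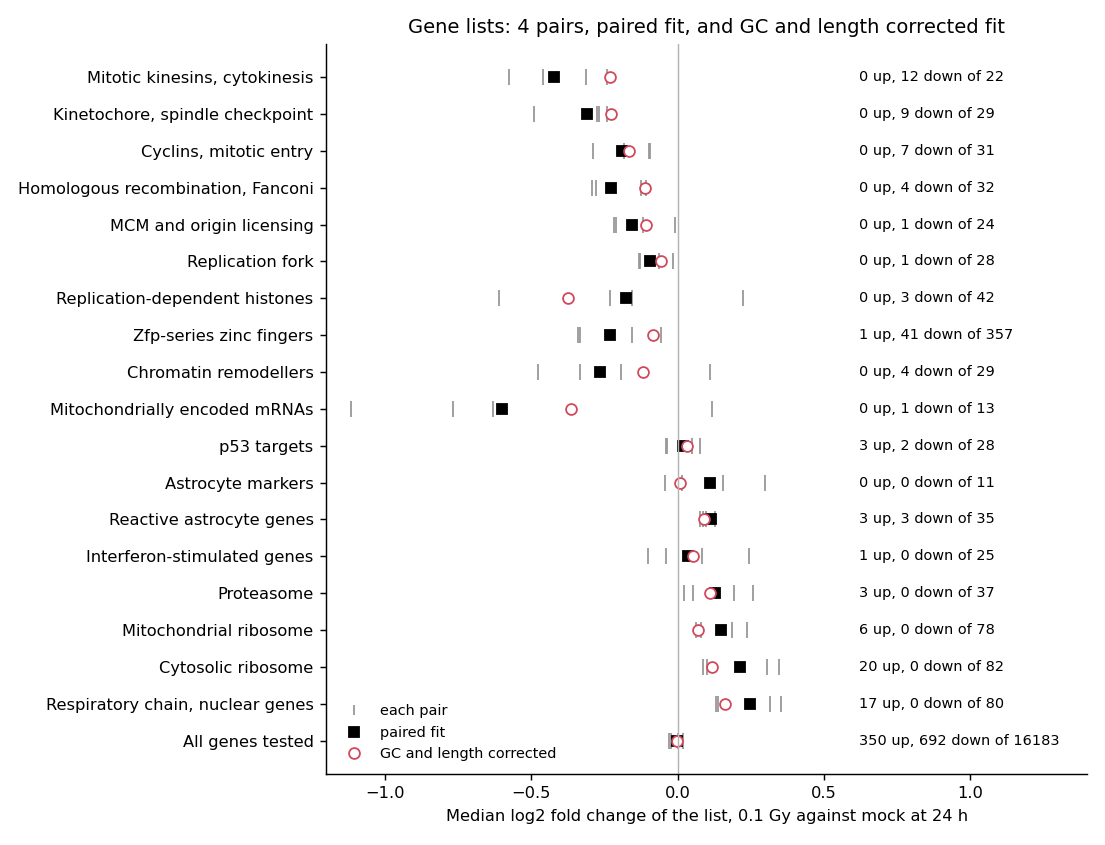
Median log2 fold change of gene groups after 0.1 Gy, for each pair, for the paired fit and for the fit corrected for GC content and gene length, with counts of genes that rose and fell. Mitotic kinesins (median -0.42, 12 of 22 down) and the respiratory chain (median 0.25, 17 of 80 up) stood on opposite sides.

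GC content and gene length moved with the fold changes. GC content was that of a gene's longest annotated transcript and length the column deposited with the counts. Genes that rose had a median GC content of 56.6% and a median length of 1936 bases, genes that fell 41.1% and 7214 bases, and all genes tested 49.6% and 3835 bases. Across 16145 genes with both values, the log2 fold change correlated with GC content at r = 0.58 and with log10 length at r = -0.26. In the quintile of genes with the lowest GC content 6 rose and 509 fell, and in the quintile with the highest 211 rose and 8 fell. By length, the shortest quintile held 180 genes that rose and 35 that fell, and the longest 7 and 384.

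**Figure D4:**
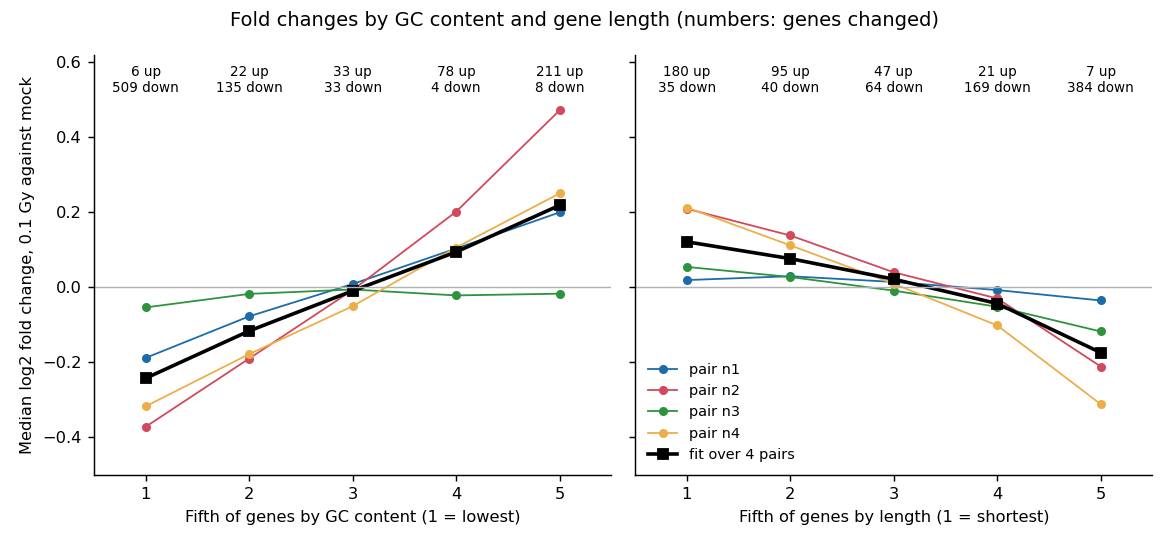
Median log2 fold change in quintiles of genes by GC content (left) and by gene length (right), for each pair, with the number of genes that rose and fell above each quintile. Medians rose from -0.24 in the lowest to 0.22 in the highest GC quintile, and pair 3 was nearly flat by GC content.

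The relation was unequal among pairs. The correlation with GC content was 0.37, 0.62, 0.05 and 0.46 in pairs 1 to 4, and with log10 length 0.02, -0.24, -0.12 and -0.33. Pairs 2 and 4, on which the counts of changed genes rested, had the 2 largest correlations with each. At 6 h the same dose gave fold changes with a correlation of opposite sign with GC content (r = -0.36).

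A slope was also taken in each library, as the change of a gene's log2 level, relative to the mean of the 8 libraries, for each 10 points of GC content. Mock libraries had slopes of -0.33, -0.36, 0.32 and -0.15, and irradiated libraries of -0.12, 0.11, 0.34 and 0.18. The irradiated library had the higher slope in all 4 pairs, by 0.21, 0.47, 0.03 and 0.33, yet slopes differed as much among mock libraries as between doses. The mean difference was 0.26 (-0.13 ± 0.31 in mock and 0.13 ± 0.19 in irradiated libraries, SD, n = 4), with p = 0.171 in an exact two-sided permutation test and p = 0.125 in an exact sign-flip test of the pairs, which is the smallest p that 4 pairs can give. For a 10-fold change of length the slope differed by -0.22, with p = 0.286 in the exact permutation test, and pair 1 went the other way by 0.02. Among 10209 genes with a mean of at least 10 CPM the difference was -0.39 with all 4 pairs below 0 (exact permutation p = 0.171).

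**Figure D5:**
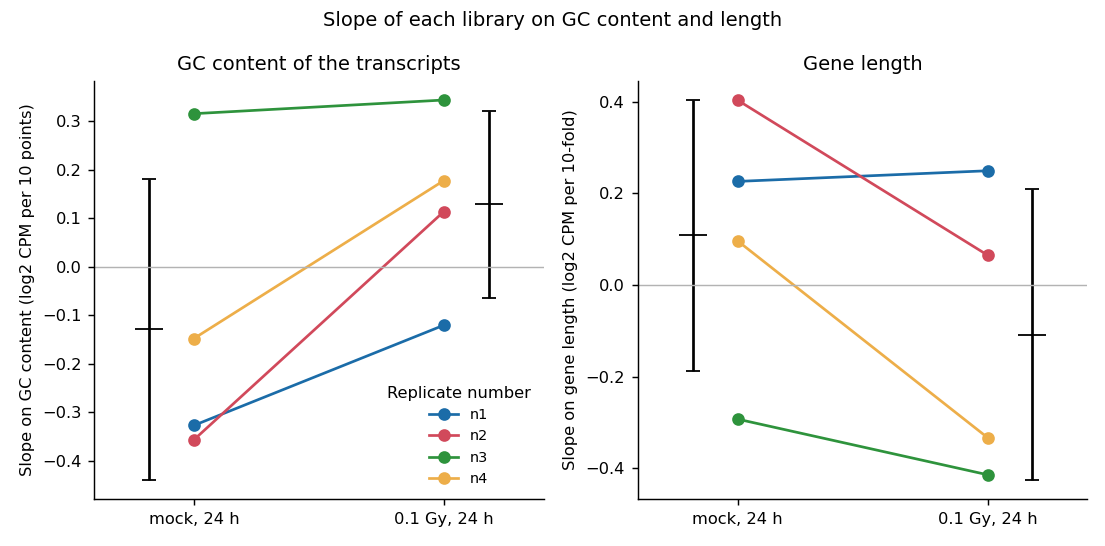
Slope of log2 level on GC content (per 10 points) and on gene length (per 10-fold) in each of the 8 libraries, pairs joined, with the mean and SD of each group. The GC slope was higher after 0.1 Gy in every pair, by 0.03 in pair 3 and 0.47 in pair 2.

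After the dependence on GC content and length had been removed from each library, 205 of 16145 genes rose (1.27%) and 79 fell (0.489%). Both fits called 106 genes higher (0.657%) and 58 lower (0.359%), none was called in opposite directions, and 120 genes were called only after correction. Lower genes made up 66.4% of calls before and 27.8% after correction. Of the genes that fell in the uncorrected fit, 22 had a fold change above 0 after correction. In the lowest GC quintile 64 genes rose and 18 fell, and in the highest 23 and 22.

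Of the 10 genes that stayed called whichever replicate was left out, the corrected values were -1.86 for Gm24187, -1.62 for Gm25911, -1.21 for Gm24270, -1.72 for Rmrp, -1.22 for Rn7sk, -1.62 for Cdr1, 0.90 for Mt2, -0.52 for Esco2, -0.67 for Lmbrd2 and -0.38 for Pank3. All 10 were also called in the corrected fit. Mt1 (0.46), Mt3 (0.35), Apoe (0.37) and H2-D1 (0.44) remained called, and so did Mki67 (-0.50), Knl1 (-0.43), Cenpe (-0.38), Ccna2 (-0.39) and Ccne2 (-0.40). Of the 60 called genes given by name, 26 were no longer called, among them Foxo6, mt-Tv and Rpl9-ps6 as given above. Others were Bbc3 (0.35, edgeR adjusted p = 0.0529), Bax (0.26, 0.0594), Malat1 (-0.49, 0.0552), Pole (-0.31, 0.0848), Top2a (-0.19, 0.149), Trp53inp1 (-0.16, 0.210), Atrx (-0.15, 0.273) and Orc4 (-0.15, 0.352). The rest were Cenpf (-0.28), Kif11 (-0.28), Brip1 (-0.29), Fancd2 (-0.35), Eda2r (-0.11), Rpl37a (0.18), Zfp428 (0.23), Slc4a4 (-0.20), Ptgs2 (-0.29), Kcnq1ot1 (-0.29), C1qc (0.16), Olig1 (0.10), Map2 (-0.21), Svop (0.27) and Abhd11os (0.66). Of the 28 p53 targets 0 were called by edgeR after correction, with 6 at an unadjusted p below 0.05.

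Most gene groups named above kept the sign of their medians after correction. Corrected medians were -0.23 for kinesins and cytokinesis (0 up, 4 down), -0.23 for the kinetochore (0 up, 2 down), -0.17 for the cyclin list (0 up, 4 down) and -0.11 for homologous recombination (0 called by edgeR, 8 at an unadjusted p below 0.05). They were 0.12 for the cytosolic ribosome (15 up, 1 down), 0.16 for the respiratory chain (20 up, 0 down) and 0.17 for splicing factors (10 up, 0 down). The Zfp genes went to -0.08, with 0 up and 3 down of 357 where the paired fit had 1 up and 41 down. Their median GC content was 44.3%. Nuclear long noncoding RNAs went from -0.21 to 0.07. Dose and the GC and length dependence of the libraries cannot be told apart where they moved together, and their part in the calls lost was not tested further.

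At 6 h after 0.1 Gy, 0 of 16020 genes passed edgeR's adjusted p of 0.05 and 636 had an unadjusted p below 0.05. A direct test of the difference between times, the interaction of dose and time, called 1511 of 17040 genes (8.87%), 706 with the more positive fold change at 24 h and 805 with the more negative. They included 864 of the 1042 genes changed at 24 h. With GC content and length corrected the interaction was called for 169 genes, without the replicate block for 0, without replicate 1, 2 or 4 for 2 in each case, and without replicate 3 for 3457. Mt2 had a log2 fold change of -0.38 at 6 h and 1.09 at 24 h (interaction 1.48, edgeR adjusted p = 0.0169), and Gm24187 0.20 and -1.87 (interaction -2.05, edgeR adjusted p = 4.09e-06). Esco2 was at 0.22 and -0.81.

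The 2 Gy cultures of 24 h share the mock libraries with the 0.1 Gy cultures, so both sets of fold changes are given side by side without a measure of likeness. After 2 Gy and 0.1 Gy the log2 fold changes were -1.61 and -0.69 for Mki67, -2.06 and -0.81 for Esco2, -1.36 and -0.47 for Ccna2, -1.53 and -0.69 for Ccne2, 1.36 and 1.09 for Mt2, 0.84 and 0.61 for Mt1, 0.57 and 0.22 for Cdkn1a, and -0.77 and -1.87 for Gm24187. The synaptic vesicle gene Svop, at 1.43 and 0.48, and the noncoding RNA Abhd11os, at 1.45 and 0.93, were higher at both doses, and each shares bases with a neighbour on the other strand, Svop with Usp30 and Abhd11os with Abhd11. Tested directly, 0 of 16002 genes differed between 2 Gy and 0.1 Gy (0.0%; edgeR, 790 at an unadjusted p below 0.05). For Mki67 the uncorrected difference was -0.91 and for Esco2 -1.25, both short of edgeR's threshold (adjusted p = 0.244 and 0.157). After correction for GC content and length 104 of 15968 genes differed, of which 98 were lower at 2 Gy. They included Mki67 (-0.89, edgeR adjusted p = 0.0309) and Esco2 (-1.2, edgeR adjusted p = 0.0314).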

How the data were processed

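RNA was taken from 24 cultures, and the 8 libraries of 24 h with 0 or 0.1 Gy were compared. The authors deposited raw read counts per gene with gene lengths, made from paired poly(A) libraries against mm10. Aligner, counting tool and use of strand are not given in the sources used here. Groups follow the sample titles. Symbols, biotypes and transcript GC content came from GENCODE M21 by gene identifier (49056 of 49315 matched), promoters from RefSeq.

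Counts were tested with edgeR 4.0.16 in R 4.3.3 (TMM scaling, filterByExpr, quasi-likelihood F test, replicate number as a block, Benjamini-Hochberg adjustment over all 16183 genes). The numbers pair the samples, since each repeat was a new isolate and same-numbered libraries correlated in their deviations (r = 0.659, 0.877, 0.761 and 0.741). None of the 12 pairs of libraries within a group agreed within sampling noise, and libraries of different groups were not compared in this way. SE is the log2 fold change divided by the root of F. CPM use TMM-scaled library sizes, and pair differences a prior count of 2. For the corrected fit, each library's dependence on GC content and log10 length was removed with natural splines (5 degrees of freedom each). Lists were described by counts and medians, with no set test. The members and lists were chosen with earlier results of these data known.

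Genes were named mostly from those picked by a rule. It took up to 10 per direction changed at least 2-fold. It also took up to 10 per direction changed in both fits at 10 CPM or more. In each list it took up to 2 per direction and the 2 most abundant members. Genes named by the study and overlapping genes were added. Not every gene picked was named, and most abundant members that were not called were left out. Of 66 genes named and followed, 60 were called and 6 were not, so they overstate the share of genes called. Alternatives were no block, other scalings and filters, DESeq2 1.42.0, limma voom 3.58.1, all 24 libraries, a stricter threshold and each replicate left out. Counts per list without each replicate and after the GC and length correction were added after the data were seen. The code was tested on simulated counts.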

Additional observations from a re-analysis of the deposited data

Results flagged for a closer look

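The fold change after 0.1 Gy differed between 24 h and 6 h, by the interaction of dose and time in edgeR (adjusted p below 0.05), for 1511 of 17040 genes. This count fell to 2 without replicate 1, 2 or 4, to 0 without the replicate block and to 169 with GC content and length corrected. Of the genes named here 51 were among them. The difference of the log2 fold changes, 24 h minus 6 h, was above 0 for 24. It was 1.79 for Rpl9-ps6, 1.52 for Foxo6, 1.48 for Mt2, 1.31 for Scand1, 1.31 for Pcsk1n, 1.15 for Abhd11os, 1.10 for Romo1, 1.04 for Jund, 0.98 for Mt3, 0.97 for Rplp2, 0.93 for Fbxo2, 0.90 for Atp5g3, 0.87 for Apoe, 0.83 for Mt1, 0.82 for Bbc3, 0.80 for Bax, 0.79 for Ndufa8, 0.78 for Zfp428, 0.75 for Snrpd2, 0.72 for Hnrnpa0, 0.71 for H2-D1, 0.65 for Rpl37a, 0.57 for C1qc and 0.55 for Olig1. For 27 genes the difference was below 0. It was -2.23 for mt-Tv, -2.05 for Gm24187, -1.88 for Rmrp, -1.62 for Gm25911, -1.57 for Cdr1, -1.29 for Zfp871, -1.24 for Lmbrd2, -1.07 for Ptchd1, -1.02 for Esco2, -0.88 for Zfp280c, -0.87 for Knl1, -0.85 for Aspm, -0.83 for Pank3, -0.79 for Mki67, -0.78 for Ptgs2, -0.77 for Atrx, -0.76 for Cenpe, -0.73 for Trp53inp1, -0.67 for Orc4, -0.67 for Cenpf, -0.65 for Eda2r, -0.62 for mt-Co1, -0.60 for Ccne2, -0.59 for Kif11, -0.58 for Top2a, -0.49 for Ccna2 and -0.48 for Map2. No such gene was called at 6 h on its own.

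In 14 of 154 groups of 4 libraries 1 library stood apart from the other 3, where chance alone gives about 1 in 20. In mock cultures these were replicate 1 for Gm24187 (68.2 CPM) and Gm25911 (3.73 CPM), replicate 3 for Ndufa8 (65.3 CPM) and Gfap (518 CPM), replicate 4 for Olig1 (234 CPM), replicate 3 for Rpl9-ps6 (0.667 CPM) and replicate 2 for Svop (28.4 CPM). In irradiated cultures replicate 1 stood apart each time, for Gm24187 (21.7 CPM), Gm25911 (1.05 CPM), Gm23935 (3378 CPM), Cdr1 (3.84 CPM), Bbc3 (13.3 CPM), Bax (83.3 CPM) and the share of small noncoding RNAs (0.502% of counts).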

How the results depend on the processing

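Pairing, the libraries in the fit, each replicate and the GC and length correction moved counts. Against 1042 genes changed in the paired fit (28 at least 2-fold), the fit without the replicate block called 0 (0), all 24 libraries with the block within time 0 (0), and an adjusted p below 0.01 left 1 (1), which was Gm24187. Library size alone gave 1686, testing every gene with a read 1805 (51), a minimum of 10 reads per library 16 at 2-fold, and DESeq2 8 at 2-fold. Leaving out each replicate gave from 16 to 3633 genes (12 to 88). Correction for GC content and length gave 284 (17), and with no block 0 (0). The corrected count was 629 with gene length alone and 17 to 1093 with a replicate left out. The interaction of dose and time, 1511 genes, became 0 without the block, 169 after correction and 2 to 3457 with a replicate left out. The difference between 2 Gy and 0.1 Gy, 0 genes, became 104 after correction and 0 to 161 with a replicate left out, the upper values without replicate 3. The causes were not tested.

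Of the 60 named genes called in the paired fit, none reversed its direction in any setting run, but 0 were called without the block or with all 24 libraries, 1 at an adjusted p below 0.01, 12 without replicate 2, 11 without replicate 4, 55 without replicate 1 and 60 without replicate 3. DESeq2 called 51, library size alone 55, limma voom 60 and the corrected fit 34. Medians of 6 of 42 gene lists changed sign with library size alone, among them matrix genes and vessel markers, and 4 after correction. The mean difference in GC slope was 0.186 to 0.334 with a replicate left out, and in length slope -0.293 to -0.142. With genes of at least 10 CPM the length slope difference was -0.386, with 10 reads in every library -0.27. Models of few reads, such as Gm25911, are limited by depth.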

Other observations

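Of 42 replication-dependent histone genes 3 fell (7.14%, against 4.28% of all genes) and 0 rose, with a median log2 fold change of -0.18 in the paired fit and -0.37 after correction for GC content and length, and with pair medians of -0.61, 0.22, -0.23 and -0.16. Their mRNAs end in a stem loop in place of a poly(A) tail. By edgeR, 0 of them were called without replicate 2, 3 or 4. Leaving out replicate 1 turned the direction, with 2 higher, 0 lower and a median of 0.02. Of 58 translation initiation and elongation factors 2 fell (3.45%) and 0 rose (median -0.03). Of 24 matrix, proteinase and inhibitor genes 3 fell (12.5%, against 4.28% of all genes) and 0 rose. Of 23 cholesterol genes 1 fell (4.35%), of 18 circadian clock genes 2 fell (11.1%), and of 20 AP-1 and immediate early genes 1 rose (5%, against 2.16% of all genes). Without replicate 2, and likewise without replicate 4, edgeR called 0 genes of these 4 lists. At an unadjusted p below 0.05 were 7 and 6 matrix, 1 and 3 cholesterol, 2 and 2 clock, and 1 and 4 AP-1 genes. Of 8 genes also measured by RT-qPCR 0 were called by edgeR, with 4 at an unadjusted p below 0.05, and DESeq2 called 2.

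The 10 most abundant genes of a library took 15.9, 11.2, 9.70 and 6.74% of the counts in mock and 9.89, 7.15, 6.15 and 6.28% in irradiated libraries of replicates 1 to 4. The share was lower after 0.1 Gy in each pair, by least in pair 4. Gm42418, which takes up ribosomal RNA reads and whose CPM are given above, was lower in each pair but pair 4. Its part in this share was not tested.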
